A study of Mus musculus with 10 samples.

Results

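The mRNAs of the mitochondrial ribosomal proteins were examined in the left ventricle of 5 mice in each of 2 groups, control and HFD+mTAC. The members were all genes of the deposited tables whose symbol begins with Mrpl (large subunit) or Mrps (small subunit) followed by a digit, with a TPM above 0 in at least 9 of the 10 mice, and 4 pseudogene symbols with the ending -ps were left out. This gave 77 of 29564 genes, 48 of the large and 29 of the small subunit. No symbol was lost to the requirement on TPM, and all 77 members were among the 13291 genes tested.

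All mice were wild-type (WT) males of strain C57BL6 (C57BL/6J in the methods) that received vehicle, and the labels give daily vehicle at 10 mL/kg for 6 to 9 weeks for the HFD+mTAC animals. HFD+mTAC mice were operated on as young adults, with a moderate narrowing of the transverse aorta (mTAC) that raises the pressure load on the left ventricle, and were then kept on a high-fat diet (HFD) to model heart failure in which the ejection fraction is preserved (HFpEF). Control mice had standard chow and no operation, so that effects of the diet, of the constriction and of surgery as such cannot be told apart here. Whole polyadenylated RNA of the ventricle was sequenced, and in such bulk RNA fewer cells of a type cannot be told apart from less RNA per cell.

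Mitochondria carry their own ribosomes, which translate the few messengers encoded by mitochondrial DNA into core subunits of the respiratory chain and ATP synthase. All protein components of these ribosomes are encoded in the nucleus, made in the cytosol and imported, where they assemble with mitochondrial ribosomal RNA. Some descend from bacterial ribosomal proteins and others are found in mitochondrial ribosomes without a bacterial relative. Heart muscle depends on oxidative phosphorylation, and inherited defects of several of these proteins cause cardiomyopathy in humans.

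Libraries held 34.2 to 53.7 M estimated counts, 12.7 to 21.1 M of them on nuclear protein-coding genes, and mitochondrially encoded genes took 43.79 to 52.66% of all counts. A member had a median of 971 counts per mouse. Cardiomyocyte markers were abundant in every mouse, with a summed level of 52100 to 59200 CPM (counts scaled by TMM to a common library total) in control and 47400 to 54200 CPM in HFD+mTAC mice, in accord with the labelled tissue. Of the atrial markers Sln, Myl7 and Myl4 had at most 3, 21 and 79 counts in any mouse and Nppa up to 5100, and of the adipocyte markers Ucp1 had 0 counts in every mouse, Plin1 at most 1 and Cidea up to 858.

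Promoter sequences of 68 of the 77 members were found in the RefSeq table for GRCm38.p6, each running from 250 bases before to 50 bases after the annotated start. They are shown here because most members lay on the same side of 0 in the comparison below, and the letters searched were those of a site for ETS factors such as GABP (CCGGAAG), for NRF1 (GCATGCGC) and for YY1 (AAGATGGC), on both strands. CCGGAAG stood in 25 of 68 member promoters (36.8%), against 18.8% of the promoters of genes tested and 8.86% of all 32851 promoters in the table. AAGATGGC stood in 12 (17.6%, against 4.93% and 2.75%) and GCATGCGC in 8 (11.8%, against 5.69% and 2.71%). The first set ends in the letters AAG with which the YY1 set begins, so that these matches can overlap, and a match describes the sequence only. The 100 bases before the start of 4 members follow, all on the minus strand, with matches in capitals. Mrpl42 had the smallest p of the members and Mrps36 was among the next lowest, both without a match in this stretch, whereas Mrpl43 had the smallest p among large-subunit members that were higher and Mrps22 is a cardiomyopathy gene.
Mrpl42, chr10:95501950-95502049: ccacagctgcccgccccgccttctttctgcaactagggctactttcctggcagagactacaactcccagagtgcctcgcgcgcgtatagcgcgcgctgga
Mrps36, chr13:100744660-100744759: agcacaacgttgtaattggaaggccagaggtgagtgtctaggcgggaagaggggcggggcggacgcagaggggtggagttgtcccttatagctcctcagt
Mrpl43, chr19:45006443-45006542: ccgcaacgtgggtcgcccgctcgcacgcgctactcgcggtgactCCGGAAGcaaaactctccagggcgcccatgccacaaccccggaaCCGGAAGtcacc
Mrps22, chr9:98601680-98601779: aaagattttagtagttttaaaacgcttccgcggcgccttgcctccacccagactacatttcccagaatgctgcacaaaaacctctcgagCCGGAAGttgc

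Most matches to the YY1 letters lay just after the start. In 8 members they read forward and began 11 to 36 bases after the start, which is 11.8% of member promoters against 2.33% of the promoters of genes tested. Mrpl42 and Mrpl35, the members with the smallest p, both belong to these 8, and 30 bases around the match are given for each (GRCm38.p6, minus strand, match in capitals).
Mrpl42, chr10:95501904-95501933: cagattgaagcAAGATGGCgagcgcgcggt
Mrpl35, chr6:71823743-71823772: aggcaggctgcAAGATGGCggcttccatct
Fold changes were then set beside these matches. The median log2 fold change was -0.10 over the 25 members with CCGGAAG and -0.09 over the 43 without. It was -0.07 over the 12 with AAGATGGC and -0.10 over the 56 without, and -0.06 over the 8 with GCATGCGC and -0.10 over the 60 without.

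The members lie on 17 chromosomes in GRCm38, with at most 10 on one of them (chromosome 11). An annotated protein-coding gene on the other strand began within 500 bases upstream of the start of 17 of 77 members (22.1%), against 8.64% of the genes tested. Among these pairs are Mrpl49 with Fau, a gene of the cytosolic ribosome, at 59 bases, Mrps12 with Sars2, the mitochondrial seryl-tRNA synthetase, at 172 bases, and Mrpl32 with Psma2, a proteasome subunit, at 75 bases. Their log2 fold changes were -0.05 and -0.04 for Mrpl49 and Fau, -0.05 and 0.12 for Mrps12 and Sars2, and 0.05 and 0.10 for Mrpl32 and Psma2.

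Levels between members are comparable only per length, and are given here as TPM rescaled to the genes tested. On this scale the members had a median of 120 and ranged from 0.998 (Mrpl57) to 1850 (Mrps21). Mrps21, a small-subunit protein of bacterial type, stood at 1860 ± 181 (SD, n = 5) in control and 1830 ± 334 in HFD+mTAC mice. Mrpl42, which in spite of its symbol was once assigned to both subunits, stood at 1690 ± 82.5 in control and 1490 ± 47.0 in HFD+mTAC mice, so that the order of these 2 genes does not exceed their spread in control mice. They were followed by Mrpl30 (672 ± 76.1 in control mice) and Mrps36 (421 ± 10.7).

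These levels depend on the effective transcript lengths that the authors deposited, and some of those lengths are unlike the annotated messengers. Mrps21 had a mean effective length of 74 bases although its longest annotated coding transcript has 488, and Mrpl42 had 251 bases in every mouse. At the other end, Mrpl35 had a mean of 7887 bases against 3721 annotated, Mrpl57 8497 against 2877 and Mrpl50 10942 against 2114. The effective length exceeded the longest annotated transcript in 15 of 77 members (19.5%) and in 50.2% of the genes tested. Counts, which are not divided by these lengths, therefore carry the comparison below, and results on TPM are given beside them.

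To learn whether the mitochondrial ribosome was expressed differently in this model, HFD+mTAC mice were compared with control mice. Most members were slightly lower in HFD+mTAC hearts, but no single member passed the test. The log2 fold change was below 0 in 67 of 77 members (87.0%), against 49.6% of all genes tested. The median was -0.08 for the large and -0.10 for the small subunit, against 0.00 over all genes tested, and 75 of 77 members lay within 0.3 of 0. With edgeR's quasi-likelihood test and Benjamini-Hochberg adjustment 0 of 77 members had an adjusted p under 0.05, against 0.0602% (8 genes) of all genes tested, and the smallest adjusted p of a member was 0.357.

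At an unadjusted p under 0.05 there were 6 members (7.79%), all lower in HFD+mTAC mice, against 8.27% of all genes in either direction and 3.72% lower. DESeq2 gave 0 members with an adjusted p under 0.05 (0.903% of all genes) and 8 at an unadjusted p under 0.05 (8.86% of all genes), and limma on log2(TPM + 1) gave 0 (0.00752% of all genes) and 5 (6.61%). The 95% interval of the log2 fold change lay within ± 0.5 in 73 of 77 members, with a median half-width of 0.21. For 63 of 77 members the difference between the group means on the log2 scale was smaller than the larger of the SDs of the groups.

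**Figure D1:**
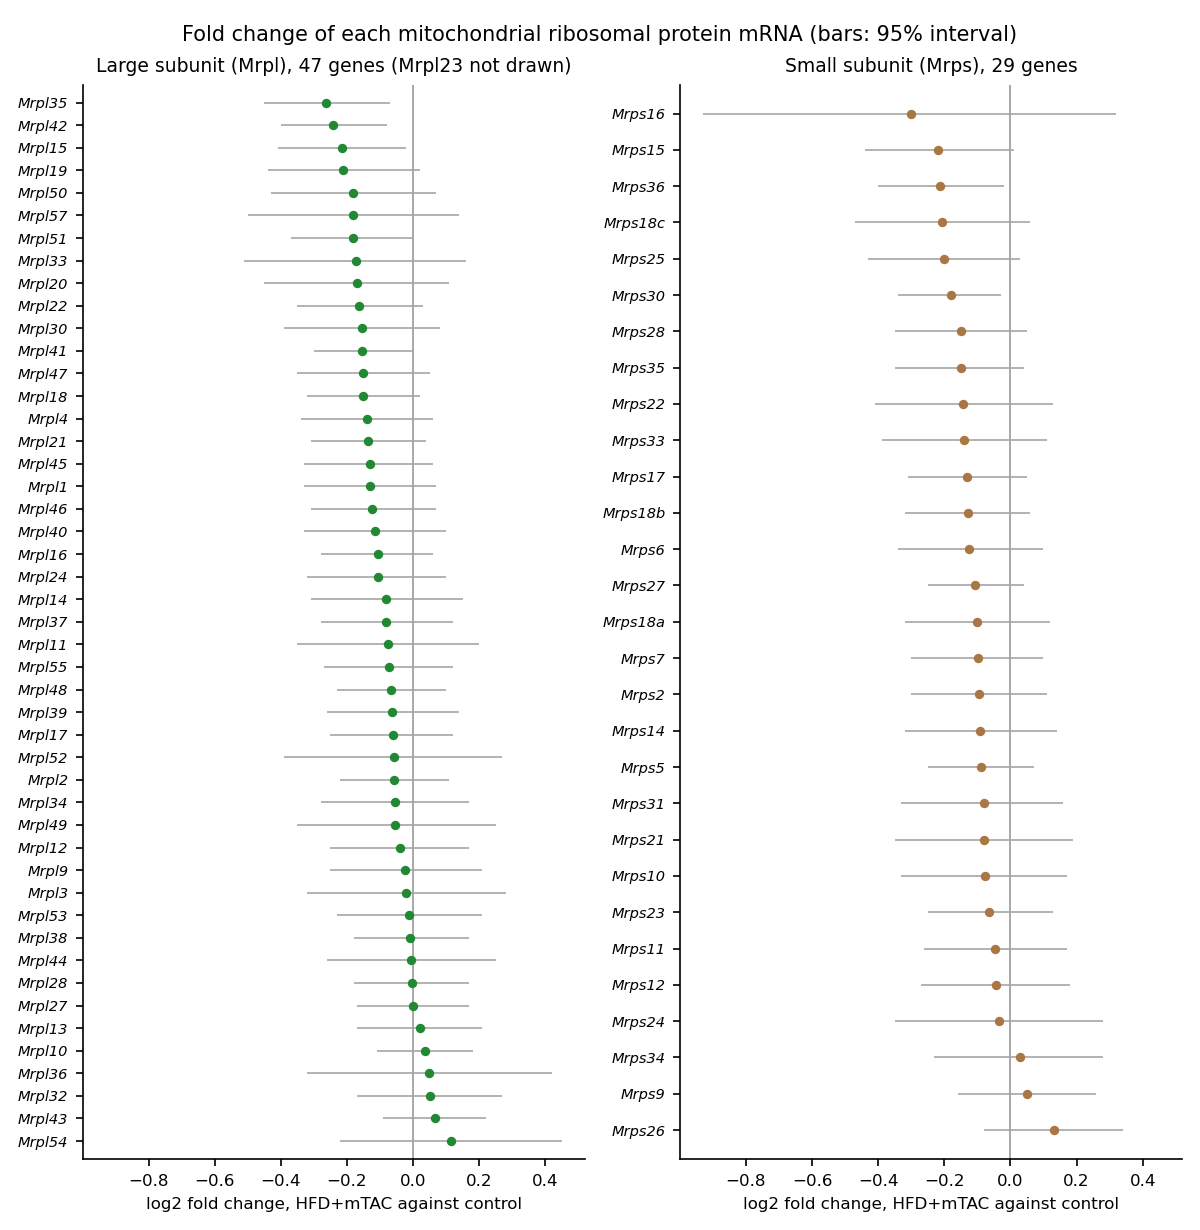
Log2 fold change (horizontal axis, HFD+mTAC against control) of each member, large subunit at left and small subunit at right, ordered from the lowest at the top, with points from edgeR and bars for the 95% interval. Most points lie left of 0 and most bars cross it, and Mrpl23, at 0.75 with an interval from -1.53 to 3.03, is not drawn.

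The excess of lower members was smaller when transcript length was taken into account. On TPM (limma on log2(TPM + 1)), 46 members were lower and 31 higher, which is 59.7% lower against 44.2% of all genes, with medians of -0.03 for the large and -0.06 for the small subunit against 0.02 over all genes. With the effective lengths as an offset in edgeR, 54 were lower and 23 higher (70.1% lower, against 49.5% of all genes), with medians of -0.05 and -0.09. No member was higher in counts and lower in TPM, 21 were lower in counts and higher in TPM, and 46 were lower in both.

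**Figure D2:**
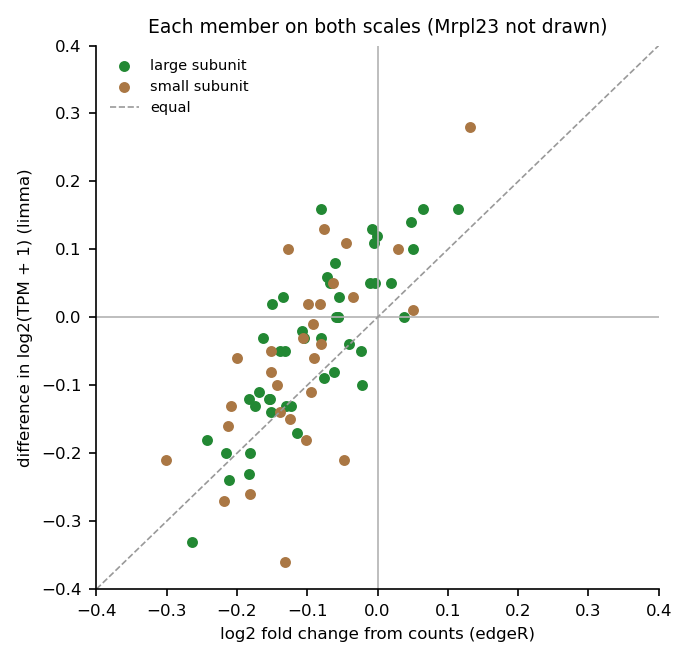
Log2 fold change of each member from counts (horizontal axis, edgeR) against its difference in log2(TPM + 1) (vertical axis, limma), with large-subunit genes in green, small-subunit genes in brown and a dashed line of equality. Of the 77 members 46 were lower on both scales, 21 lower in counts only and 10 higher on both, and Mrpl23 is not drawn.

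Fold changes from counts went with effective length over all genes, and members tend to be short. Among the 376 genes tested with a mean effective length under 300 bases, 73.7% were lower in HFD+mTAC mice, with a median log2 fold change of -0.10, and of the 16 members in this class 13 were lower, with a median of -0.07. From 300 to 800 bases, 62.8% of 1388 genes were lower (median -0.05), and 28 of 32 members (median -0.09). Above 800 bases, 47.3% of 11527 genes were lower (median 0.01), and 26 of 29 members (median -0.11). On TPM the members of the last class also lay lowest, with 22 of 29 lower (43.8% of all genes of the class) and a median of -0.09. In the shorter classes 9 of 16 (57.7% of all genes) and 15 of 32 (43.4%) were lower, with medians of -0.02 and 0.02. The part of length in the result was not tested.

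**Figure D3:**
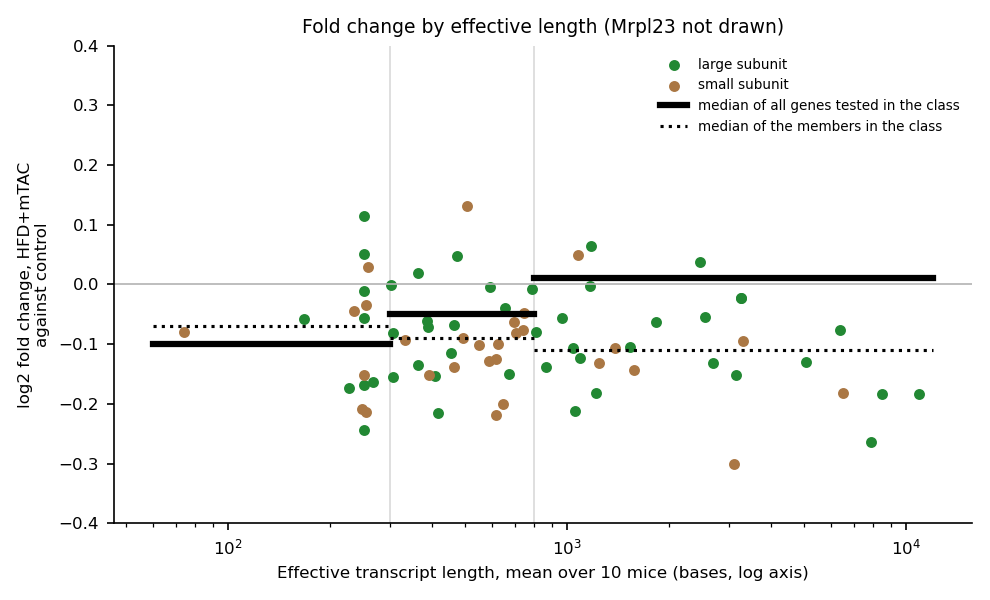
Log2 fold change of each member (vertical axis, HFD+mTAC against control) by its mean effective transcript length in bases (horizontal log axis), with the median of all genes tested (solid line) and of the members (dotted line) in 3 length classes. The medians of all genes rise from -0.10 to 0.01 with length, whereas those of the members go from -0.07 to -0.11, and Mrpl23 is not drawn.

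Members moved together in part from mouse to mouse, less closely than cytosolic ribosomal proteins or respiratory chain subunits, and the groups overlapped. Each member's level was expressed as its deviation from its own mean over the 10 mice (log2 CPM), and the median over members was taken in each mouse. For the large subunit this median was 0.09, 0.11, -0.03, 0.02 and 0.04 in the control mice (TT-583, TT-584, TT-585, TT-586 and TT-587) and -0.16, -0.04, 0.07, -0.03 and -0.07 in the HFD+mTAC mice (TT-588, TT-589, TT-590, TT-591 and TT-592). For the small subunit it was 0.09, 0.13, -0.04, -0.01 and 0.07 in control and -0.19, -0.05, 0.07, 0.03 and -0.12 in HFD+mTAC mice. TT-588 was lowest in both subunits, and no other HFD+mTAC mouse except TT-592 and TT-589 lay below every control mouse. TT-590 stood above 3 of the 5 control mice in the large subunit.

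Single mice of both groups therefore weighed on the counts. TT-588 held the lowest value of 39 of 77 members and the highest of 0, whereas TT-584 held the highest of 18. The low position of TT-588 was not particular to the members. By the median deviation it was also the lowest mouse for cytosolic ribosomal proteins (-0.31) and for nuclear subunits of the respiratory chain (-0.29). Without TT-588, 59 members were lower (49.9% of all genes), and the median was -0.05 for the large and -0.09 for the small subunit. Without control mouse TT-584, 61 members were lower (50.4% of all genes), with a median of -0.08 in both subunits. An unadjusted p under 0.05 (edgeR) was left in 2 members without TT-588 and 3 without TT-584, against 6 with all mice. TT-588 and TT-584 were picked here for these same values, so lower counts without them are no separate result. Leaving out each other mouse in turn gave from 4 (TT-583 or TT-592) to 9 (TT-587) members. The share of all genes at this p is not given for these smaller fits. The depth of TT-588 (38.7 M counts) and its share of mitochondrially encoded counts (49.86%) lay within the range of the other mice. Its summed level of cardiomyocyte markers (47400 CPM) was the lowest of the 10, close to TT-592 (47800 CPM) and TT-591 (48000 CPM). By the median deviation of these markers, TT-588 (0.04) lay between control mice TT-584 (-0.02) and TT-585 (0.22), and TT-591 was lowest (-0.3). As a description over 10 mice that share libraries and normalization, the mean pairwise correlation between members was 0.274. It was 0.572 between cytosolic ribosomal proteins, 0.429 between nuclear subunits of the respiratory chain and 0.000491 over all genes tested.

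**Figure D4:**
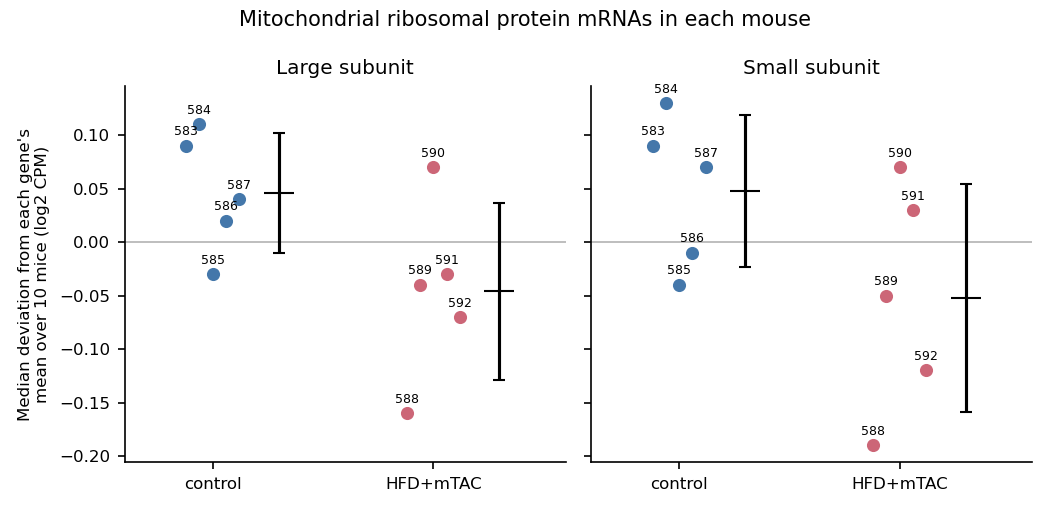
Median deviation of the large-subunit (left) and small-subunit (right) members in each mouse from each gene's mean over 10 mice (vertical axis, log2 CPM), with mouse numbers beside the points and a bar with whiskers for the group mean and SD. Control means are 0.04 and 0.05 and HFD+mTAC means -0.05 in both subunits, with TT-588 lowest and TT-590 highest of the HFD+mTAC mice.

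In the large subunit 41 of 48 members (85.4%) were lower and 4 had an unadjusted p under 0.05 (edgeR), against 8.27% of all genes in either direction. Mrpl42 (chr10:95480805-95501940, minus strand), a protein without a bacterial relative, had 402, 437, 403, 448 and 392 CPM in the control mice and 327, 363, 371, 337 and 361 CPM in the HFD+mTAC mice. Every HFD+mTAC mouse was below every control mouse. The means were 416 ± 24.4 and 352 ± 19.1 CPM (SD, n = 5 each). The log2 fold change was -0.24 ± 0.07 (SE), with an adjusted p of 0.357 in edgeR and 0.061 in DESeq2. On rescaled TPM the groups did not overlap either.

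Mrpl35 (chr6:71812997-71826969, minus strand), which is of bacterial type, had 41.6, 40.2, 37.8, 40.8 and 37.6 CPM in control and 30.8, 28.4, 36.2, 35.1 and 34.5 CPM in HFD+mTAC mice. Again the groups did not overlap, with a log2 fold change of -0.26 ± 0.09 (SE) and an adjusted p of 0.415 (edgeR). Mrpl42 and Mrpl35 were the 2 members whose groups did not overlap (2.60% of members), against 1.96% of all genes in either direction and 0.888% of all genes lower in HFD+mTAC mice, so the share lay near that of all genes. With the lengths as an offset the groups of 1 member did not overlap, against 1.44% of all genes. Leaving out single mice gave 2 to 5 members, with 5 without TT-585 (3.22% of all genes) or TT-590 (2.89%) and 4 without TT-586 (3.16%) or TT-587 (3.82%), in groups of 4 against 5 that overlap less often over all genes too.

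Mrpl15 (chr1:4773206-4785739, minus strand), a bacterial-type protein of the subunit's core, had 90.6, 101, 85.3, 76.2 and 87.3 CPM in control and 67.2, 76.2, 86.2, 73.0 and 77.4 CPM in HFD+mTAC mice. Its log2 fold change was -0.21 ± 0.09 (SE, adjusted p = 0.559, edgeR), and the groups overlapped between 76.2 and 86.2 CPM. Mrpl41 (chr2:24974117-24975098, minus strand), found in mitochondrial ribosomes only, had 66.3, 74.4, 68.9, 72.9 and 70.0 CPM in control and 61.4, 67.3, 66.9, 59.6 and 62.0 CPM in HFD+mTAC mice. Here the difference was -0.15 ± 0.07 (SE, log2, adjusted p = 0.597, edgeR) and the groups overlapped only between 66.3 and 67.3 CPM. Mrpl51 had 289 ± 14.9 CPM in control and 254 ± 26.5 CPM in HFD+mTAC mice (log2 fold change -0.18 ± 0.09, SE, adjusted p = 0.609, edgeR).

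Of the 7 large-subunit members with a positive fold change, the smallest p belonged to Mrpl43 and Mrpl54, both specific to mitochondria. Mrpl43 had 50.9 ± 2.87 CPM in control and 53.3 ± 2.61 CPM in HFD+mTAC mice (log2 fold change 0.07, 95% interval -0.09 to 0.22). For Mrpl54 the values were 63.2 ± 10.3 and 68.4 ± 15.9 CPM (0.11, interval -0.22 to 0.45). Neither passed the test (adjusted p = 0.882 and 0.910, edgeR).

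**Figure D5:**
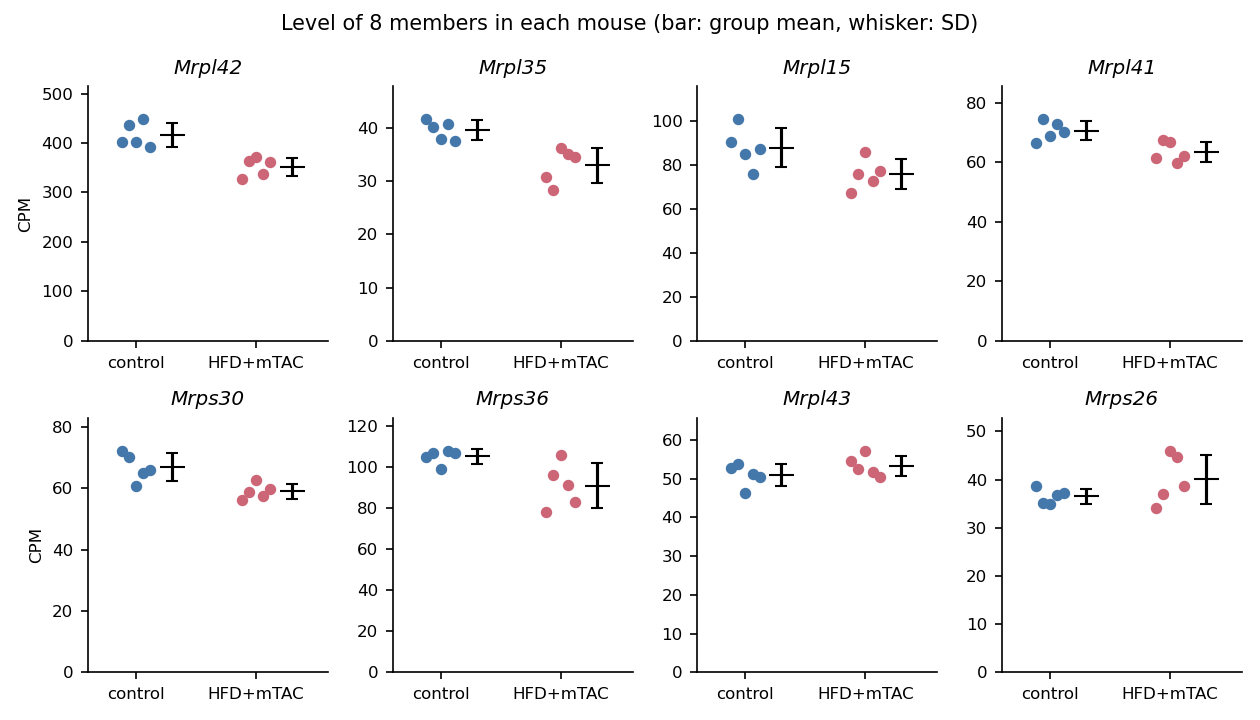
Level of 8 members in each mouse (vertical axis, CPM from 0, points by group) with the group mean and SD as bar and whiskers. The groups do not overlap for Mrpl42 and Mrpl35 and overlap for the other members drawn, and Mrpl43 and Mrps26 are examples of members with a higher mean in HFD+mTAC mice.

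Several members were named for a known role. Mrpl12, the stalk protein that recruits translation factors and also binds the mitochondrial RNA polymerase, had 218 ± 23.9 CPM in control and 212 ± 21.2 CPM in HFD+mTAC mice (log2 fold change -0.04, 95% interval -0.25 to 0.17). Mrpl3 and Mrpl44, in which mutations cause cardiomyopathy in infancy, had log2 fold changes of -0.02 (interval -0.32 to 0.28) and 0.00 (interval -0.26 to 0.25). Their sign turned under other settings. The peptide-release protein Mrpl58, listed under its older symbol Ict1 and so not among the 77, had 64.7 ± 5.64 and 59.3 ± 7.25 CPM (log2 fold change -0.13 ± 0.10, SE, adjusted p = 0.794, edgeR).

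In the small subunit, as set by symbol, 26 of 29 members (89.7%) were lower. Of these 2 had an unadjusted p under 0.05 (edgeR), Mrps30 and Mrps36, against 8.27% of all genes in either direction. The 18 bacterial-type and 9 mitochondria-specific genes listed below with the small subunit do not include either, and 0 of them had such a p. Mrps30 sits in the large subunit of the assembled ribosome despite its symbol (chr13:118378381-118387252, minus strand). It had 72.3, 70.3, 60.9, 65.0 and 66.1 CPM in control and 56.1, 58.9, 62.6, 57.7 and 59.9 CPM in HFD+mTAC mice, and only TT-585 and TT-590 crossed the other group's range. Its log2 fold change was -0.18 ± 0.07 (SE, adjusted p = 0.511, edgeR).

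Mrps36 (chr13:100735955-100744659, minus strand), a member by its symbol, is a subunit of the oxoglutarate dehydrogenase complex of the citric acid cycle. It ties the E3 component to this complex, and the lists by descent below leave it out. Mrps36 had 105, 107, 99.0, 108 and 107 CPM in control and 78.2, 96.3, 106, 91.3 and 82.8 CPM in HFD+mTAC mice. Of the HFD+mTAC mice TT-590 alone lay within the control range, and the log2 fold change was -0.21 ± 0.09 (SE, adjusted p = 0.525, edgeR). HFD+mTAC mice varied more (SD 10.9 CPM) than control mice (SD 3.75 CPM).

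Mrps15, the next lowest by p, had 107 ± 9.60 CPM in control and 92.3 ± 13.1 CPM in HFD+mTAC mice (log2 fold change -0.22 ± 0.10, SE, adjusted p = 0.610, edgeR). It was followed by Mrps25, with 59.2 ± 8.57 and 51.6 ± 4.41 CPM (-0.20 ± 0.11), and by Mrps18c. On TPM the difference of Mrps25 shrank to -0.06, while that of Mrps15 was -0.27 (unadjusted p = 0.0103, limma, adjusted p = 0.629).

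Mammals have 3 relatives of a single bacterial protein of the small subunit, Mrps18a, Mrps18b and Mrps18c, of which Mrps18a is built into the large subunit. Their log2 fold changes were -0.10 (95% interval -0.32 to 0.12), -0.13 (interval -0.32 to 0.06) and -0.21 (interval -0.47 to 0.06). Mrps18a was the most abundant per length in control mice (183 ± 22.8 rescaled TPM), followed by Mrps18c (132 ± 14.7) and Mrps18b (102 ± 13.4). On TPM Mrps18b had a positive difference (0.10), so its sign differed between the scales.

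Mrps22, a cardiomyopathy gene, had 21 ± 2.5 and 19.0 ± 2.72 CPM (log2 fold change -0.14, 95% interval -0.41 to 0.13). The most abundant member per length, Mrps21, had 134 ± 17.4 and 127 ± 21.4 CPM (-0.08, interval -0.35 to 0.19), and Mrpl30, the next after Mrpl42, had 201 ± 20.9 and 180 ± 26.3 CPM (-0.16, interval -0.39 to 0.08). Of the 3 small-subunit members that were higher, Mrps26 had 36.6 ± 1.57 CPM in control and 40.1 ± 5.11 CPM in HFD+mTAC mice (0.13, interval -0.08 to 0.34) and a larger difference on TPM (0.28, unadjusted p = 0.0361, limma, adjusted p = 0.709). Mrps9 had 118 ± 15.5 and 122 ± 7.06 CPM (0.05, interval -0.16 to 0.26).

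Mrpl23, named after its values were seen, could not be measured reliably. It had 1, 26, 89, 556 and 133 counts in control and 78, 68, 599, 42 and 549 counts in HFD+mTAC mice, a spread found in both groups. Its processed pseudogene Mrpl23-ps1 had 535 counts in TT-586, 440 in TT-590 and 0 in the other mice, so that reads may have been split between near-identical copies. The log2 fold change of 0.75 had an SE of 1.05. Mrps16, with the most negative fold change of all members (-0.30 ± 0.29, SE), had only 35 to 124 counts per mouse.

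Proteins of bacterial descent and those specific to mitochondria gave like values. Over all genes tested, 49.6% were lower and 8.27% had an unadjusted p under 0.05 in either direction (edgeR). With Ict1 included, Mrps36 left out, Mrps30 counted with the large subunit and Mrps18a, by its symbol, with the small, 42 of 48 bacterial-type members were lower (median log2 fold change -0.09, 2 with an unadjusted p under 0.05) and 25 of 29 mitochondria-specific ones (median -0.11, 3 with an unadjusted p under 0.05). The groups by descent and subunit had medians of -0.08 (large, bacterial type, 25 of 30 lower), -0.10 (large, mitochondria-specific, 18 of 20), -0.10 (small, bacterial type, 17 of 18) and -0.11 (small, mitochondria-specific, 7 of 9), the last moving to -0.03 on TPM. None of these had a gene with an adjusted p under 0.05 (edgeR).

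Mitoribosomal proteins whose symbols fall outside the rule were lower as well, 5 of 5 (49.6% of all genes), with a median of -0.10. Of them 0 had an unadjusted p under 0.05 (8.27% of all genes, edgeR). Dap3, a GTP-binding protein of the small subunit, had 117 ± 3.06 CPM in control and 109 ± 5.49 CPM in HFD+mTAC mice. Chchd1 had 76.4 ± 10.8 and 64.9 ± 10.3 CPM (log2 fold change -0.24 ± 0.12, SE, adjusted p = 0.669, edgeR). The remaining 3 were Ptcd3 (-0.15), Gadd45gip1 (-0.09) and Aurkaip1 (-0.08).

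Factors that build the mitochondrial ribosome or modify its RNA were lower in 20 of 25 genes tested (49.6% of all genes), with a median of -0.09. Of them 0 had an unadjusted p under 0.05 (8.27% of all genes, edgeR). The assembly GTPase Mtg2 had 30.8 ± 3.61 and 26.4 ± 2.80 CPM (-0.22 ± 0.11, SE, adjusted p = 0.620, edgeR), and the related Mtg1 had 24.7 ± 2.52 and 28.1 ± 4.11 CPM (0.19 ± 0.12, adjusted p = 0.744). On TPM 15 of these 25 were lower. Translation factors were lower in 9 of 15 genes from counts (median -0.01), in 10 of 15 on TPM and in 12 of 15 with the length offset. The shares of all genes that were lower were 49.6% from counts, 44.2% on TPM and 49.5% with the offset. Mitochondrial aminoacyl-tRNA synthetases were lower in 10 of 20 from counts (median -0.01) and 6 of 20 on TPM, and factors of mitochondrial DNA transcription and replication in 8 of 11 from counts (median -0.03) and 4 of 11 on TPM (median 0.07). Differences between these lists were not tested.

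Guf1, a GTPase of mitochondrial translation, had 49.3, 47.4, 46.7, 46.5 and 45.5 CPM in control and 40.6, 39.0, 39.9, 35.7 and 40.1 CPM in HFD+mTAC mice. The groups did not overlap, with a log2 fold change of -0.27 ± 0.07 (SE). Its adjusted p was 0.262 in edgeR and 0.0373 in DESeq2, so that the call depended on the test. Over all genes an adjusted p under 0.05 was found in 0.0602% with edgeR and 0.903% with DESeq2. The groups did not overlap in 1.96% of all genes. Guf1 was named because it had the smallest p among the lower genes of its list. The elongation factor Gfm2 had 75.8 ± 16.0 and 81.3 ± 15.1 CPM (0.10 ± 0.16).

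Among factors that charge mitochondrial tRNAs, Qrsl1, part of the complex that makes glutaminyl-tRNA, had 36.5, 31.0, 34, 25.3 and 29.3 CPM in control and 22.7, 26.3, 20.5, 25.1 and 25.7 CPM in HFD+mTAC mice. TT-586 overlapped the HFD+mTAC range, and the log2 fold change was -0.38 ± 0.11 (SE, adjusted p = 0.352, edgeR). Ssbp1, which binds single-stranded mitochondrial DNA, had 41.2 ± 2.15 and 36.9 ± 2.86 CPM (-0.16 ± 0.08, on TPM 0.01), and the exonuclease Mgme1 17.8 ± 6.02 and 21.9 ± 2.70 CPM (0.30 ± 0.22).

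Members were set beside the nuclear-encoded subunits of the respiratory chain, which assemble with the products of mitochondrial ribosomes, and beside the ribosome of the cytosol. Nuclear subunits of the respiratory chain were lower in 74 of 82 genes tested (49.6% of all genes), with a median of -0.13. Of them 5 had an unadjusted p under 0.05 (8.27% of all genes) and 0 an adjusted p under 0.05 (0.0602%, edgeR). On TPM 58 were lower (44.2% of all genes), with a median of -0.08. Their median effective length was 293 bases, and 73.7% of all genes under 300 bases were lower from counts. Cox6b1 had 962 ± 113 and 795 ± 67.4 CPM (-0.28 ± 0.10, SE, adjusted p = 0.443, edgeR), and the testis isoform Cox6b2, at no more than 3.54 CPM in any mouse, had the smallest p in the other direction (0.66 ± 0.39). Cytosolic ribosomal proteins were lower in 60 of 78 (median -0.06, on TPM -0.02, and 0.01 without TT-588), against 49.6% of all genes. Their median effective length was 288 bases, so the 73.7% of genes under 300 bases that were lower is the closer comparison. Rpl18 varied from 9.61 to 118 CPM in control mice (-1.54 ± 0.60, adjusted p = 0.504, edgeR, and -0.82 without TT-585), and Rpl3 had 265 ± 17.1 and 294 ± 41.3 CPM (0.15 ± 0.10).

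The 13 protein-coding genes of mitochondrial DNA, whose messengers mitochondrial ribosomes translate, were tested in a fit over all genes. Of these, 3 were lower (50.8% of all genes in this fit) and the others higher, between -0.46 (mt-Nd3) and 0.23 (mt-Nd6) on the log2 scale. The genes at these extremes were low, with at most 0.0501% (mt-Nd3) and 0.0661% (mt-Nd6) of the counts of any mouse. An unadjusted p under 0.05 was found in 0 of the 13, and the smallest adjusted p was 0.786 (edgeR).

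Markers of cell types were measured beside the members, since a shift in cell content would move them together. Cardiomyocyte markers were lower in 7 of 8 genes (49.6% of all genes), with a median log2 fold change of -0.17. Of these, 1 (Tnni3) had an unadjusted p under 0.05 (8.27% of all genes, edgeR). No marker list had a gene with an adjusted p under 0.05 (edgeR). Summed levels overlapped between the groups for fibroblast markers (1050 to 1470 CPM in control, 1080 to 1510 in HFD+mTAC mice, 2 of 6 lower), endothelial markers (1600 to 2020 and 1610 to 2260, 3 of 6 lower) and macrophage markers (152 to 229 and 165 to 216, 4 of 6 lower). Smooth muscle and pericyte markers (1730 to 2420 and 1680 to 2760, 3 of 5 tested lower), red blood cell markers (157 to 1810 and 170 to 1860, 5 of 5 lower) and atrial markers (198 to 376 and 123 to 338, 2 of 2 tested lower) overlapped as well. The adipocyte list (34.7 to 45.5 and 47.0 to 56.4) did not overlap and came almost entirely from Cidea, which had 38.9 ± 5.43 and 50.9 ± 4.21 CPM. The part of cell content in the lower levels of the members was not tested.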

How the data were processed

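Left ventricular RNA of 10 mice was analyzed, with groups from the sample labels. The members and gene lists were chosen with earlier results of these data known. The labels give a stranded polyadenylated RNA kit, single-end reads and Salmon 1.6.0 (submitters' processing notes, which also name hg38), whereas the methods give paired-end reads, GENCODE transcripts of mouse GRCm38 and tximport. Gene symbols are those of the mouse.

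The authors deposited expected counts per gene, not normalized, of which 20.07% are not whole numbers. They also deposited TPM, which take transcript length into account and are scaled per mouse, and effective transcript lengths in bases, another kind of deposited value, which relate counts to TPM within 0.000507 (relative difference). No column was left without a sample. Coordinates and biotypes came from GENCODE M21 (GRCm38), an older release than the authors', matched by 27812 current and 864 older symbols, with 888 unmatched. Promoters came from RefSeq (GRCm38.p6).

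Counts were rounded and tested with edgeR 4.0.16 in R 4.3.3 (TMM, quasi-likelihood, Benjamini-Hochberg over all 13291 genes, threshold 0.05). Genes tested were protein-coding, not mitochondrially encoded, and had at least 1 count in at least 9 mice. Alternatives were DESeq2 1.42.0, limma 3.58.1 on TPM (pseudocount 1 or 0.1), other normalizations and filters, lengths as an offset, a robust fit and the omission of each mouse. In TPM fits a fold change is on the log2(TPM + pseudocount) scale, which understates changes of low genes. The tests were tried on simulated data first. Log2 CPM used a prior count of 2, and summaries were made in Python 3.11.15. Within groups, pairs of libraries differed by a chi-square per degree of freedom of at least 13.3, so none was a repeat run of the same library. The labels name each mouse separately but no litter or batch.

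Members named in the text were, per subunit, the 5 with the smallest p among those lower, the 2 among those higher and the 2 most abundant by TPM, and members with a known role. From each other list, the gene with the smallest p in each direction was named, apart from 1 that is not reported here. Genes in pairs, with extreme lengths or counts, or among markers were named after values were seen.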

Additional observations from a re-analysis of the deposited data

Results flagged for a closer look

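Each group of 5 mice was examined for a value far from the others in the named members and in the medians of both subunits, with a gap to the nearest value above 0.71 of the group's range (Dixon's 95% limit). Of 52 groups 3 were marked, and chance marks about 1 in 20. Mrps9 stood at 135 CPM in HFD+mTAC mouse TT-589, with the next mouse at 120 CPM. Mrps18b stood at 62.1 CPM in HFD+mTAC mouse TT-590, with the next at 56.6 CPM. Mrpl23 stood at 39.2 CPM in control mouse TT-586, where its pseudogene also had counts, with the next control mouse at 10.5 CPM.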

How the results depend on the processing

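Across 20 alternatives, 0 members had an adjusted p under 0.05 in each, both medians stayed below 0, and the number of lower members was 46 (TPM) to 68. Leaving out each mouse in turn gave 59 to 68 lower members, medians of -0.12 to -0.05 (large) and -0.14 to -0.08 (small subunit), and 2 to 5 members whose groups did not overlap (2.49 to 3.82% of all genes at that group size). With transcript lengths as an offset this last number was 1 (1.44% of all genes). Without single mice the median of cytosolic ribosomal proteins ranged from -0.12 to 0.01. Among named genes, direction turned for few. Mrpl44 went to 0.11 on TPM with either pseudocount, 0.07 with the length offset and 0.00 with upper-quartile normalization, and ranged from -0.10 to 0.03 when single mice were left out. Mrps18b was 0.10 on TPM with either pseudocount and 0.06 with the offset, Mrps9 was -0.03 with the offset, and Ssbp1 was 0.01 on TPM. With single mice left out, Mrpl3 ranged from -0.10 to 0.07, Mrpl12 from -0.10 to 0.01 and Mrps9 from -0.02 to 0.11. Mrpl23 ranged from 0.07 to 2.24. The cause of these turns was not tested. The adjusted p of Mrpl42 ranged from 0.061 to 0.674 and that of Mrpl35 from 0.175 to 0.687. With 5 mice per group, differences below 0.21 on the log2 scale lie within the median half-width of a member's 95% interval. No paired analysis was possible because the groups share no replicate numbers.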
